A study of Populus tremula x Populus alba with 64 samples.

Results

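The 100 transcripts described here were chosen by a contrast in control roots of poplar, a woody model tree. Counts were scaled to CPM (counts per 1000000 of the library total) after 20 rows of 28S ribosomal RNA were dropped. Each of the remaining 61987 rows, which stand for transcripts of 37153 genes, was scored. The score was the lowest CPM of the 4 control-AI roots at 11 d plus 0.5, divided by the highest CPM of the 3 control-AI roots at 24 h plus 0.5, and the 100 highest scores were kept. The members belong to 100 different genes, and only control-AI root libraries entered the choice.

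Roots and stems came from rooted cuttings of the hybrid poplar clone INRA 717-1B4 (Populus tremula × P. alba), whose leaves were sprayed. AE-plants received the auxin enhancers NAA (3 µM) and IBA (4.5 µM), AI-plants received NPA (100 µM), an inhibitor of polar auxin transport, and all were prepared in 1 N KOH. Control-AE and control-AI plants received only KOH at 1 N, which therefore reached the leaves of every group, and the tissues were taken at 11 d and at 24 h. RNA-seq libraries of polyadenylated RNA were made in 16 groups. All plants are of 1 clone, so the spread between libraries holds no genetic variation. The labels do not say whether a library is 1 plant or several, so the tests measure only the spread between libraries.

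In the root, cells leave the meristem, elongate and mature over days, and lateral roots and root hairs form behind the tip. Auxin delivered from the shoot is a main regulator of that branching, and roots are a major sink for carbon fixed in the leaves. Root transcript levels also vary with age, nutrient supply and the hour of the day. Plant age and the length of the spray period both differ between 11 d and 24 h, and these cannot be told apart here.

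Of the 64 libraries, 50 held at least 1000000 counts and were used, with totals of 3075654 to 21062883 counts after the rRNA rows were dropped. The other 14 held 90306 to 370828 counts and were left out. The labels name 2 libraries otherwise: control-AE root 11 d replicate 3 was labelled acceptable and was left out, and replicate 2 was labelled low and was used. The 12 annotated rows of the green tissue list (chlorophyll-binding and photosystem proteins) summed to 15.2 to 192 CPM over the used roots and 1363 to 3670 CPM over the used stems, so roots and stems separated as labelled. The highest root sum was that of control-AE 11 d replicate 5. No 2 replicates held the same values, and all 63 replicate pairs differed beyond counting noise (chi-square per degree of freedom 5.68 to 80.7). The rRNA rows dropped held at most 0.246% of the counts of a used root and up to 22.1% of those of a used stem.

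The scores were small. The highest was 1.98, the second was 1.59 and the median of the 100 was 1.34. All 11 d libraries lay above all 24 h libraries in 2008 of the 61987 rows (3.24%), and the opposite held in 1487 rows (2.40%). The last 3 members had scores of 1.279, 1.277 and 1.276, and the first 3 rows left out had scores of 1.276, 1.274 and 1.273, so no gap separates members from the rows below them. In the opposite direction 148 rows had a score at or above that of the last member, and the highest was 2.66. Because the rule used these values, they describe the choice and carry no test.

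The choice changed with single libraries. Without control-AI 24 h replicate 3 only 28 of the 100 stayed among the top 100, without replicate 2 it was 30, and without replicate 1 it was 47. Leaving out 11 d libraries kept 37 to 68, the fewest without replicate 1. An offset of 0.1 CPM kept 34 members, an offset of 2 CPM kept 58, and TMM-scaled totals kept 85. In 29 members no control-AI 24 h root held more than 5 reads, and in 12 of these all 3 held none.

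The members had few exons, a property that the rule did not use. Their annotation in the deposited tables has a median of 2 exons, against 4 exons over the 28796 rows with at least 0.2 CPM on average in roots. Single-exon transcripts made up 37 of the 100 (37%), against 12.6% of those rows. Transcripts of 1 or 2 exons made up 68%, against 28.9%. Rows with a noncoding RNA identifier made up 16%, against 6.21% of those rows and 12.8% of all 61987 rows scored. The median length was 1609.5 bases against 1698 bases. For 76% of members the row is the only one of its gene, against 66.0% of the same rows. These shares are a description, with no test. Members lay on 23 sequences, with 5 on unplaced scaffolds, and only 1 pair of neighbours lay within 100000 bases of each other.

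A product name could be given to 14 members, of which 4 are uncharacterized. The 10 informative names fall into 4 roles. Histone H1, the LOB domain-containing protein 41 and the MYB-like factor ETC1 act on chromatin or transcription. The putative RING-H2 finger protein ATL12, the U-box domain-containing protein 8 and the putative ligase XBAT31 belong to families of ubiquitin ligases, which mark proteins for turnover. Molybdate transporter 1 and the probable purine permease 4 belong to families of membrane transporters. DIR1 is a putative lipid-transfer protein, known in Arabidopsis for systemic acquired resistance, and MARD1 takes its name from abscisic acid-regulated seed dormancy in Arabidopsis. The other 86 members are given by gene identifier, since the sources used here name no product for them.

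**Figure D1:**
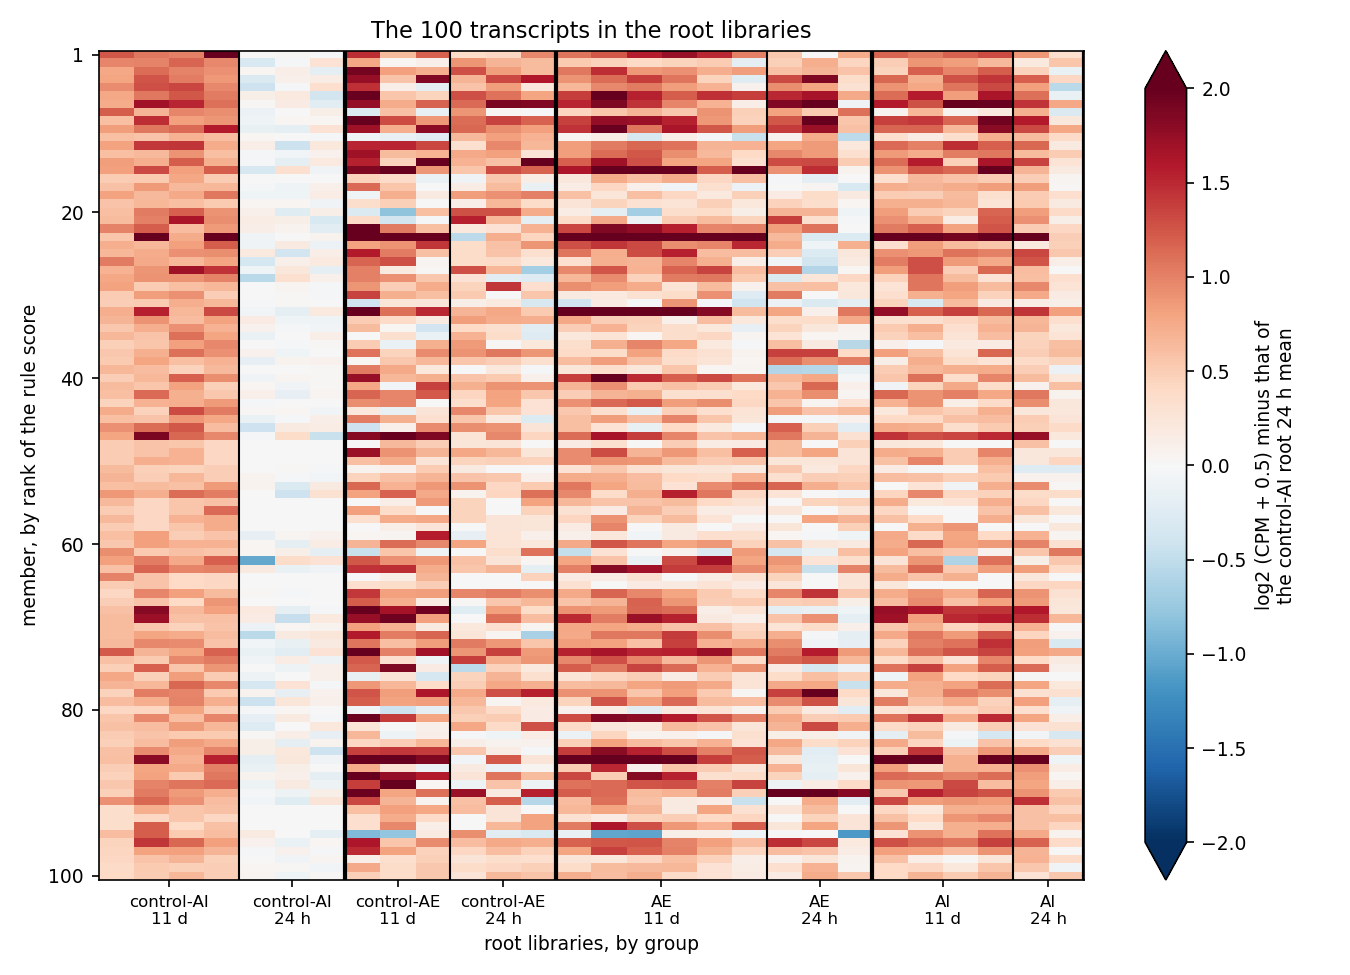
Every member (rows, by rank of the score) in every used root library (columns, by group), as log2 (CPM + 0.5) minus that of the control-AI root 24 h mean. Red is above and blue below that mean, and colours saturate at 2 and -2. The control-AI 24 h columns stand out as pale, and the 24 h columns of the other arms are mostly red, with medians of 0.46 to 0.47, relative to libraries in which the members were chosen to be low.

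The rule chose members for low values in the control-AI 24 h roots, so that other groups lie above those roots is in part set by the choice. Group means were compared as log2 (CPM + 0.5). The members had a median difference of 0.77 at 11 d over 24 h in control-AI roots, a 1.70-fold difference, where the rule fixes the direction. The median difference from control-AI 24 h was 0.47 in control-AE 24 h roots (97 of 100 members higher), 0.46 in AE 24 h roots (91 of 100) and 0.47 in AI 24 h roots (98 of 100). At 11 d the same median was 0.74 in control-AE, 0.65 in AE and 0.73 in AI roots, close to the 0.77 of control-AI roots. All of these share the control-AI 24 h libraries and are a description, with no test.

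Whether the members were higher at 11 d in other roots was tested with edgeR's quasi-likelihood test over 21 root libraries of control-AE, AE and AI, without the control-AI roots. Of the 100 members 84 passed the filter on low counts, and adjusted p-values cover all 25431 rows tested, with a threshold of 0.05. In control-AE roots (3 libraries at 11 d and 3 at 24 h), 10 of the 84 were higher at 11 d and 4 were lower. Over all rows 5.98% were called higher and 3.31% lower. In AE roots (6 and 3 libraries), 15 of the 84 were higher and 6 were lower, against 8.66% higher and 7.65% lower over all rows. Neither contrast was passed by 57 of 84 members (67.9%), against 81.1% of all rows. In whole organs, fewer cells of a type and less RNA per cell cannot be told apart.

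The median log2 fold change of the 84 was 0.30 in control-AE roots, 0.15 in AE roots and 0.25 in AI roots. Over all rows tested the medians were 0.02, 0.00 and 0.00. The fold change was positive in 57, 54 and 73 members in control-AE, AE and AI roots (67.9%, 64.3% and 86.9% of the 84). Over all rows tested it was positive in 52.0%, 50.4% and 50.6%. It was positive in all 3 arms for 41 of the 84, and negative in all 3 for 3, against 27.2% and 25.4% of all rows. Libraries separated completely in the direction of the rule, all 11 d above all 24 h, in 18 of 84 in control-AE roots (13.4% of all rows), 18 of 84 in AE roots (12.7%) and 9 of 84 in AI roots (10.9%). The opposite separation held in 6 of 84 in control-AE (9.65% of all rows), 4 of 84 in AE (6.17%) and 1 of 84 in AI (4.99%). The 9 of 84 in AI roots (10.7%) is near the share of all rows.

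Some counts depended on 1 library. The 15 members called higher in AE roots became 1 without AE 24 h replicate 1. The 10 in control-AE roots became 3 without control-AE 24 h replicate 3, 5 without 11 d replicate 2 and 17 without 11 d replicate 5. With the replicate number as a block, control-AE roots had 6 members higher and 1 lower, and AE roots had 15 higher and 1 lower. The shares of all rows called in these runs are not given here. The counts given here therefore do not show whether the changes are particular to the members.

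Passing in either contrast were 18 members higher and 9 lower (10.3% and 8.63% of all rows), and none passed in opposite directions. Of these, 7 were higher in both control-AE and AE roots (4.39% of all rows) and 1 was lower in both (2.33%).

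**Figure D2:**
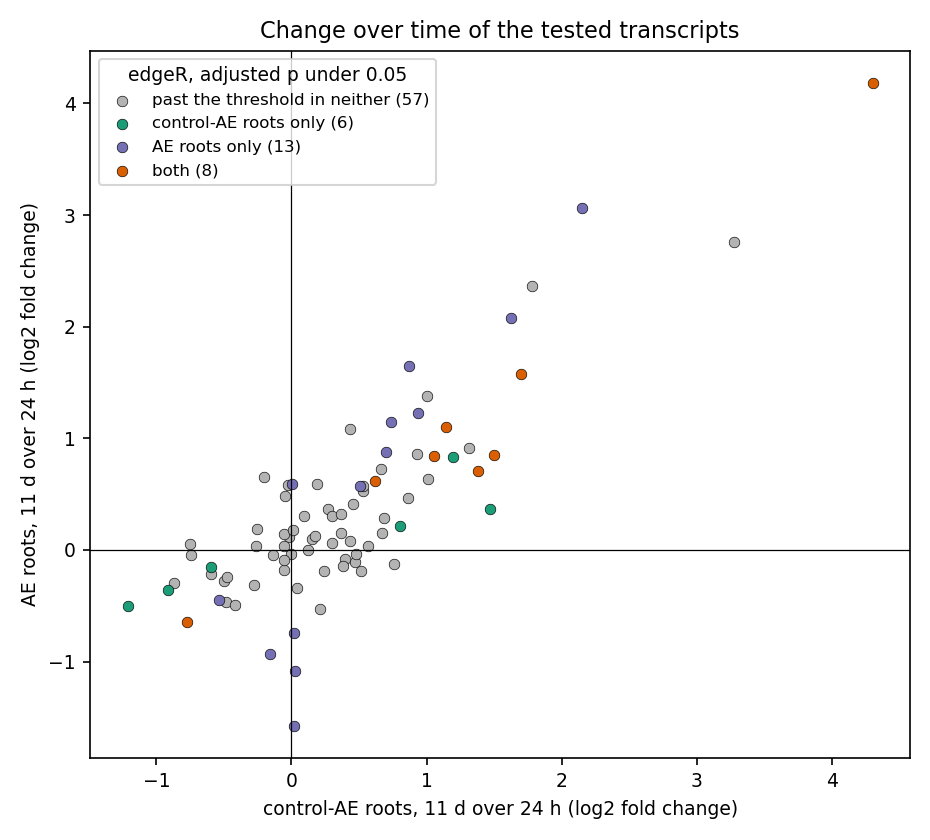
Log2 fold change of the 84 tested members at 11 d over 24 h, in control-AE roots (horizontal axis) and AE roots (vertical axis), which share no library. Colours give the arms in which edgeR's adjusted p was under 0.05: 8 members in both, 6 in control-AE roots only, 13 in AE roots only and 57 in neither (81.1% of all rows were in neither).

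DIR1 was the most abundant of the members that rose in both arms. Its gene (7468489) lies at bases 11496900 to 11497560 of NC_037298.1, plus strand, as a single exon. In control-AE roots it had 987, 766 and 933 CPM at 11 d, against 205, 425 and 311 CPM at 24 h. The groups did not overlap, and the log2 fold change was 1.5 ± 0.31 (SE, edgeR, adjusted p = 0.0057). In AE roots it had a lowest value of 264, a median of 441 and a highest of 542 CPM at 11 d, against 212, 218 and 228 CPM at 24 h. There too all 11 d roots were above all 24 h roots, with a log2 fold change of 0.85 ± 0.27 (SE, edgeR, adjusted p = 0.038). In AI roots it had 805, 748, 649 and 652 CPM at 11 d, against 732 and 284 CPM at 24 h, where replicate 2 lay among the 11 d roots.

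MARD1 (gene 7464843, bases 22538474 to 22540885 of NC_037289.1, minus strand, 3 exons) rose by a similar log2 value in both arms. Control-AE roots had 213, 174 and 119 CPM at 11 d, against 103, 119 and 101 CPM at 24 h. The lowest 11 d value met the highest 24 h value, and the log2 fold change was 0.62 ± 0.18 (SE, edgeR, adjusted p = 0.039). In AE roots the lowest, median and highest values were 106, 121 and 152 CPM at 11 d, against 68.3, 69.0 and 92.5 CPM at 24 h. Here the groups did not overlap, and the log2 fold change was 0.61 ± 0.16 (SE, edgeR, adjusted p = 0.016).

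The largest rise in both arms was that of gene 18096921, a single-exon transcript at bases 11416126 to 11417009 of NC_037287.1, plus strand. Control-AE roots had 16.1, 3.32 and 4.97 CPM at 11 d, against 0, 0.689 and 0.472 CPM at 24 h. In AE roots its lowest, median and highest values were 3.29, 5.26 and 8.99 CPM at 11 d, against 0.0921, 0.0993 and 0.635 CPM at 24 h. All 11 d roots were above all 24 h roots in both arms. This was a log2 fold change of 4.30 ± 0.80 (SE, edgeR, adjusted p = 0.0032) in control-AE roots. In AE roots it was 4.18 ± 0.79 (SE, edgeR, adjusted p = 0.0027). In AI roots the values were 3.26, 4.01, 2.22 and 2.93 CPM at 11 d, against 3.22 and 0.511 CPM at 24 h, so that replicate 2 was again as high as the 11 d roots.

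Gene 112328980 (bases 24403343 to 24403888 of NC_037285.1, minus strand, 1 exon) was a low transcript with a tight rise. It had 1.80, 1.90 and 1.86 CPM at 11 d in control-AE roots, against 0.800, 0.492 and 0.378 CPM at 24 h. In AE roots the lowest, median and highest values were 1.31, 1.78 and 2.63 CPM at 11 d, against 0.276, 0.596 and 0.908 CPM at 24 h. The groups did not overlap in either arm, and the log2 fold changes were 1.70 in control-AE roots and 1.57 in AE roots.

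The remaining 3 members that rose in both arms also carry no product name. Gene 18102014 had log2 fold changes of 1.14 in control-AE and 1.10 in AE roots, and control-AE 11 d replicate 5 (17.9 CPM) lay within the 24 h range there. Gene 7490354 had log2 fold changes of 1.06 and 0.84, with no overlap of the groups in either arm. Gene 7472448 had log2 fold changes of 1.38 and 0.70, and in AE roots 24 h replicate 3 (12.2 CPM) lay among the 11 d roots. Its call in AE roots held in only 12 of 30 alternatives.

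Another 8 members rose in AE roots only (4.27% of all rows) and 3 in control-AE roots only (1.59%), by the same threshold. Those lower were 5 in AE roots only (5.32% of all rows) and 3 in control-AE roots only (0.975%). The largest of the AE rises was that of gene 7458043 (bases 11005380 to 11007898 of NC_037296.1, plus strand, 7 exons). Its lowest, median and highest values in AE roots were 1.57, 3.87 and 5.71 CPM at 11 d, against 0.276, 0.397 and 0.545 CPM at 24 h, a log2 fold change of 3.06 ± 0.71 (SE, edgeR, adjusted p = 0.0083). Control-AE roots had 5.66, 3.13 and 2.76 CPM at 11 d, against 0.356, 1.57 and 0.567 CPM at 24 h. Those groups did not overlap either, and the log2 fold change was 2.15 (edgeR, adjusted p = 0.056). Of the 3 in control-AE roots only, gene 18108627 had the largest log2 fold change, 1.47 ± 0.35 (SE, edgeR, adjusted p = 0.013). No difference between the arms passed for any of these 11 members.

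**Figure D3:**
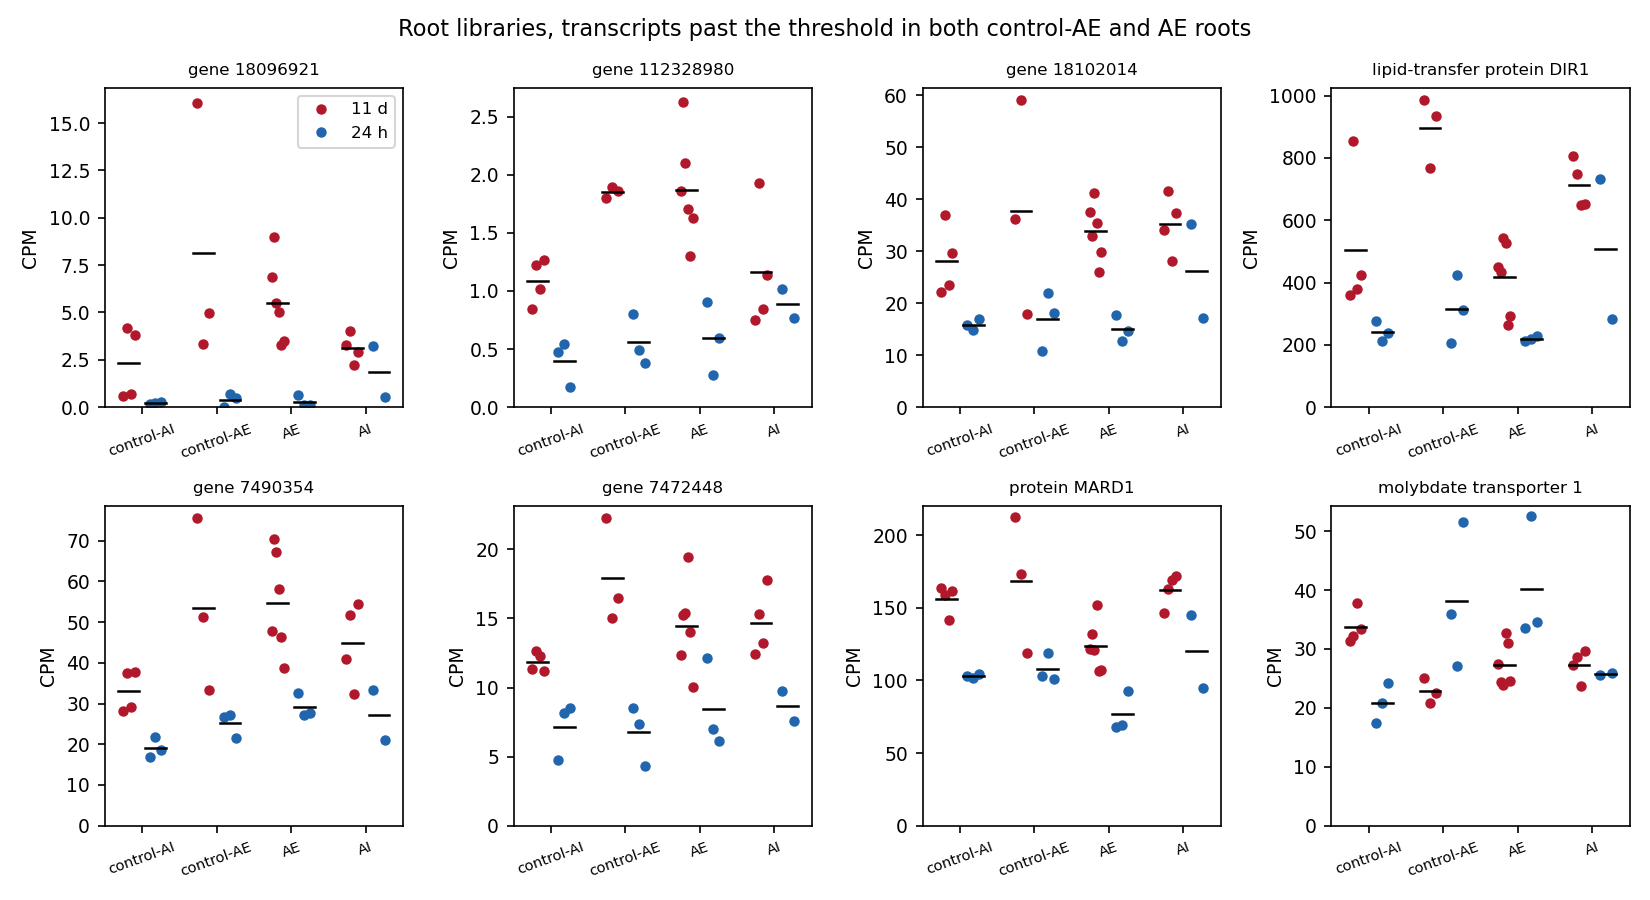
CPM of the 8 members past the threshold in both control-AE and AE roots, with 11 d (red) left of 24 h (blue) in each arm, 1 point per library and a line at the group mean. Of these, 7 were higher at 11 d and molybdate transporter 1 was lower in both tested arms. The AI 24 h group holds only 2 libraries.

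Molybdate transporter 1 fell in both arms, against the direction in which it was chosen. The gene (7495734) is a single exon at bases 25337903 to 25339654 of NC_037290.1, minus strand, and its Arabidopsis counterpart takes up molybdate, which is needed for nitrate reduction. In control-AI roots it had 31.3, 32.2, 37.8 and 33.3 CPM at 11 d, against 17.4, 20.8 and 24.2 CPM at 24 h. In control-AE roots it had 25.1, 20.8 and 22.5 CPM at 11 d, against 35.9, 27.1 and 51.6 CPM at 24 h. In AE roots the lowest, median and highest were 23.9, 26 and 32.7 CPM at 11 d, against 33.6, 34.5 and 52.5 CPM at 24 h. Neither tested arm showed overlap. The fall had a log2 fold change of -0.77 ± 0.21 (SE, edgeR, adjusted p = 0.029) in control-AE roots and -0.64 ± 0.18 (SE, edgeR, adjusted p = 0.021) in AE roots. In AI roots it averaged 27.3 ± 2.6 CPM at 11 d (SD, n = 4) and 25.7 ± 0.23 CPM at 24 h (SD, n = 2).

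Both transporters fell in AE roots. The probable purine permease 4 (gene 7491460, bases 5890548 to 5892033 of NC_037285.1, plus strand) belongs to a family that carries purine derivatives such as adenine and cytokinin bases. Its lowest, median and highest values in AE roots were 6.69, 8.96 and 11.6 CPM at 11 d, against 17.9, 27.9 and 31.2 CPM at 24 h. The groups did not overlap, and the log2 fold change was -1.57 ± 0.30 (SE, edgeR, adjusted p = 0.0030). In control-AE roots it had 19.7, 8.45 and 10.7 CPM at 11 d, against 16.6, 5.41 and 14.7 CPM at 24 h, with overlapping groups and a log2 fold change of 0.02. The difference between the 2 arms did not pass after adjustment (log2 difference -1.60, edgeR, adjusted p = 1.0).

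Among the ubiquitin ligase relatives, 1 fell in each arm and 1 passed in neither. XBAT31 (gene 7481540, bases 4058649 to 4061689 of NC_037293.1, plus strand, 8 exons) fell in control-AE roots, with 156, 123 and 145 CPM at 11 d, against 237, 213 and 182 CPM at 24 h. The log2 fold change was -0.60 ± 0.15 (SE, edgeR, adjusted p = 0.021), while it was -0.16 in AE roots and 0.19 in AI roots without passing. U-box 8 (gene 7497030, bases 2733396 to 2735040 of NC_037295.1, minus strand, 1 exon) fell in AE roots. Its lowest, median and highest were 1.40, 1.84 and 2.65 CPM at 11 d, against 1.89, 4.15 and 4.18 CPM at 24 h, so 1 of the 24 h roots lay within the 11 d range. Its log2 fold change was -0.93 ± 0.25 (SE, edgeR, adjusted p = 0.019). ATL12 (gene 7471530) had log2 fold changes of -0.20 in control-AE, 0.65 in AE and 0.59 in AI roots, and none passed.

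None of the 3 members acting on chromatin or transcription passed the test over time in control-AE, AE or AI roots. Histone H1 (gene 18099218), a linker histone that compacts chromatin, was number 4 by score and had 169, 235, 200 and 179 CPM at 11 d in control-AI roots, against 80.1, 106 and 109 CPM at 24 h. It lies at bases 8973183 to 8974232 of NC_037289.1, plus strand. Control-AE roots had 328, 146 and 355 CPM at 11 d, against 158, 246 and 299 CPM at 24 h. In AE roots its lowest, median and highest were 83.4, 194 and 257 CPM at 11 d, against 126, 245 and 359 CPM at 24 h. The groups overlapped in both, with log2 fold changes of 0.21 and -0.53. LOB domain 41 (gene 18099497) had 0.51 in control-AE, -0.19 in AE and 0.28 in AI roots, in log2 fold change. ETC1 (gene 7479054), a small MYB protein that acts in the patterning of root hairs in Arabidopsis, had 0.67, 0.15 and 0.13, and 121 CPM in control-AE 11 d replicate 5 stood against 41.4 and 41.7 CPM in the other two. That replicate also had the highest sum of green tissue markers among roots, and the part of this in the result was not tested.

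The 2 members with the highest scores went different ways. Gene 112327366, a noncoding RNA at bases 884892 to 886515 of NC_037288.1, plus strand, had 0.916, 0.733, 0.704 and 1.86 CPM at 11 d in control-AI roots, against 0.0944, 0.109 and 0.0866 CPM at 24 h, and each of these 24 h values was 1 read. It rose in AE roots, with a lowest of 0.698, a median of 1.06 and a highest of 1.5 CPM at 11 d, against 0.0921, 0.363 and 0.496 CPM at 24 h. The rise had a log2 fold change of 1.65 ± 0.45 (SE, edgeR, adjusted p = 0.019) in AE roots. It was 0.87 in control-AE roots and 0.92 in AI roots, where it did not pass. Gene 7496421, at bases 1839802 to 1841464 of NC_037296.1, minus strand, had 5.14, 2.90 and 3.06 CPM at 11 d in control-AE roots, against 5.6, 4.82 and 4.63 CPM at 24 h. Its log2 fold changes were -0.50 in control-AE, -0.27 in AE and 0.32 in AI roots, and none passed.

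The strongest falls in control-AE roots were those of genes 7468988 and 7474537. Gene 7474537 (bases 129721 to 131034 of NC_037286.1, minus strand, 2 exons) had 30.7, 30.0, 32.7 and 30.8 CPM at 11 d in control-AI roots, against 20.5, 20.1 and 19.5 CPM at 24 h. In control-AE roots the order was the other way, with 19, 18.1 and 17 CPM at 11 d, against 31.8, 35.8 and 32.9 CPM at 24 h. The log2 fold change in control-AE roots was -0.91 ± 0.24 (SE, edgeR, adjusted p = 0.023). Gene 7468988 had 6.82, 4.61 and 13.2 CPM at 11 d in control-AE roots, against 21.2, 21.2 and 14.5 CPM at 24 h, a log2 fold change of -1.21 ± 0.35 (SE, edgeR, adjusted p = 0.034). Neither passed in AE roots, where the log2 fold changes were -0.36 and -0.50 for 7474537 and 7468988.

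In AI roots (4 libraries at 11 d and 2 at 24 h) none of the 84 members passed the edgeR test, and neither did any other row (0% of all rows in either direction). At an unadjusted p under 0.05 there were 1171 rows, 4 of them members, and DESeq2 called 1 row and no member. The 2 AI roots at 24 h differed. The 100 members summed to 3075 CPM in one, within the 2907 to 3258 CPM of the 11 d roots, and to 1835 CPM in the other. Without replicate 2 the members' median log2 fold change was 0.56, and without replicate 3 it was 0.01, with 87 members tested. Beside the control-AI roots, the AI roots at 11 d had a median log2 difference of -0.03, with 44 members higher and 56 lower. At 24 h the AI roots were higher in 98 of 100 members, with a median log2 difference of 0.47. These comparisons use the libraries that chose the members and carry no test.

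No member passed between sprays in roots under edgeR, where 0% of all rows did. For AE against control-AE at 11 d, 10 of 84 members had an unadjusted p under 0.05 and 1 of these was higher in AE roots, against 1929 of 25431 rows, 689 of them higher. The smallest p was that of DIR1, with a log2 fold change of -1.13 ± 0.25 (SE, edgeR, adjusted p = 0.15), and all 6 AE roots lay below the 3 control-AE roots. DESeq2 called 77 rows, with 1 member, which was lower in AE roots. At 24 h 5 members had an unadjusted p under 0.05, against 1145 rows, and DESeq2 called no row. The change over time of AE minus that of control-AE roots had 6 members at an unadjusted p under 0.05 (879 rows), and that of AI minus control-AE roots had 11 (1949 rows). In these 2 differences DESeq2 called 0 and 40 rows and no member.

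In stems the members were tested over 22 libraries, and 80 of 100 passed the filter among 25095 rows. In AE stems (5 libraries at 11 d and 3 at 24 h) 4 members were higher at 11 d and 1 was lower, against 1.77% and 2.39% of all rows. In control-AE stems (3 and 2) no member passed, against 0.598% of all rows higher and 1.21% lower. In control-AI stems (3 and 2) no member passed, against 0% higher and 0.135% lower, and in AI stems (2 and 2) no row did (0% in either direction). Unadjusted p-values under 0.05 were found for 8 of 80 members in control-AI stems (2138 of 25095 rows), 15 in control-AE stems (3411 rows) and 2 in AI stems (402 rows). DESeq2 called 1 member higher in control-AI stems (140 of 25095 rows in either direction), 4 higher and 1 lower in control-AE stems (918 rows), and none in AI stems (0 rows).

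The median log2 fold change of the 80 in stems was 0.16 in control-AI, 0.19 in control-AE, 0.22 in AE and 0.11 in AI stems, while the median over all rows was 0.02 or closer to 0. The fold change was positive in 49, 51, 54 and 53 of the 80 (61.25%, 63.75%, 67.5% and 66.25%). Over all rows tested it was positive in 52.2%, 49.6%, 50.5% and 49.6%. All 11 d stems lay above all 24 h stems in 9 of 80 members in control-AI (7.5% of all rows), 13 in control-AE (11.4%), 5 in AE (4.32%) and 26 in AI (16.6%). The opposite held in 9 in control-AI (15.4% of all rows), 9 in control-AE (18%), 3 in AE (9.3%) and 9 in AI (17.8%).

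**Figure D4:**
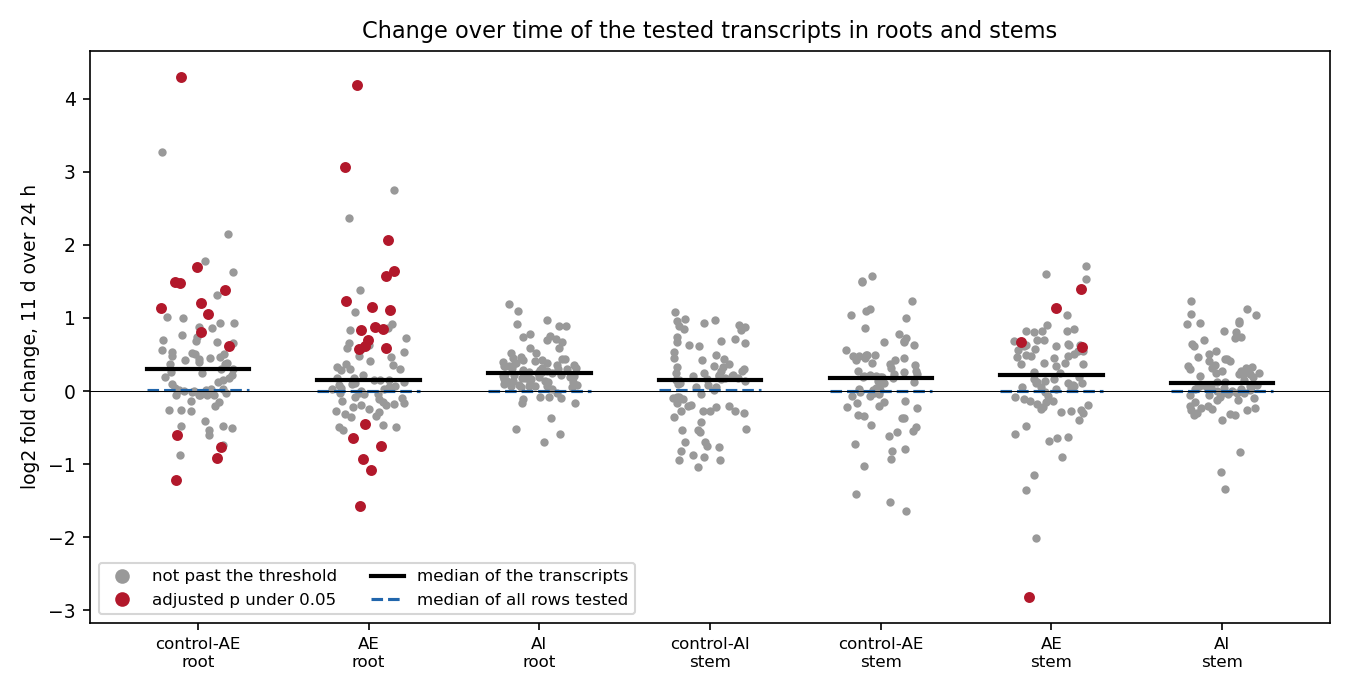
Log2 fold change at 11 d over 24 h of the tested members (1 point each) in roots (84 members) and stems (80 members). Red points passed edgeR at an adjusted p under 0.05, the black line is the members' median (0.11 to 0.30) and the dashed blue line is the median of all rows tested (close to 0).

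Histone H1 was one of the 4 members that rose in AE stems, and its level there was several times that of roots. It averaged 1023 ± 172 CPM at 11 d (SD, n = 5) and 674 ± 200 CPM at 24 h (SD, n = 3) in AE stems, with a log2 fold change of 0.67 ± 0.17 (SE, edgeR, adjusted p = 0.037). The groups overlapped through 1 library at 24 h with 874 CPM. The log2 fold change was 0.85 in control-AI stems (edgeR, adjusted p = 0.18) and 0.86 in control-AE stems (edgeR, adjusted p = 0.052). In both of these all 11 d stems lay above all 24 h stems.

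Gene 112328980 rose in AE stems as in AE roots, with 3.81, 4.04, 3.81, 3.25 and 3.25 CPM at 11 d, against 1.94, 1.43 and 0.957 CPM at 24 h. The log2 fold change was 1.40 ± 0.31 (SE, edgeR, adjusted p = 0.018). Gene 7490354 also rose in AE stems (0.60 ± 0.17, SE, edgeR, adjusted p = 0.048) as it did in control-AE and AE roots. Its call in AE stems held in only 9 of 31 alternatives. Gene 7477065 rose in AE stems (1.14 ± 0.28, SE, edgeR, adjusted p = 0.026) and had a log2 fold change of 0.04 in AE roots.

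Gene 18097807 (bases 16645355 to 16646942 of NC_037288.1, minus strand) fell in AE stems, with 0.443, 0.161, 0.218, 0 and 0.325 CPM at 11 d, against 3.78, 0.952 and 1.32 CPM at 24 h. The log2 fold change was -2.82 ± 0.66 (SE, edgeR, adjusted p = 0.022). It did not pass the filter in roots. An exact two-sided permutation test gave p = 0.10 in control-AE roots (n = 3 and 3, the smallest p possible), p = 0.71 in AE roots and p = 0.60 in AI roots.

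The calls in AE stems rested on few libraries. Leaving out 1 library in turn gave 0 to 5 members higher, with 0 without AE stem 24 h replicate 3. They became 1 without 11 d replicate 4, and 2 without 11 d replicate 3 or without control-AE stem 11 d replicate 4. With the replicate number as a block no member passed in AE stems. The shares of all rows called in these runs are not given here either.

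The difference between tissues itself was tested as the root change over time minus the stem change, over 38 libraries without control-AI, and 88 members were tested among 27364 rows. This difference is signed, so a positive value can also come from a fall in stem. In control-AE plants 1 member passed with a positive difference and 2 with a negative one, against 1.48% and 0.669% of all rows. In AE plants 3 passed with a positive difference and 2 with a negative one, against 1.78% and 1.73% of all rows. In AI plants no row passed (0%), and 1 member had an unadjusted p under 0.05, against 700 rows. DESeq2 called 7 of 88 members in control-AE (1216 of 27364 rows), 7 in AE (1721 rows) and none in AI plants (0 rows).

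Gene 7477848 had a positive difference in both, with log2 values of 2.05 ± 0.48 (SE, edgeR, adjusted p = 0.019) in control-AE and 1.61 ± 0.41 (SE, edgeR, adjusted p = 0.025) in AE plants. In control-AE roots it had 5.79, 6.36 and 2.41 CPM at 11 d, against 3.11, 3.15 and 2.74 CPM at 24 h. In control-AE stems it had 2.83, 3.71 and 4.80 CPM at 11 d, against 9.79 and 11.5 CPM at 24 h, so the separation lay in the stems. Molybdate transporter 1 had a negative difference in AE plants (-1.03 ± 0.29, SE, edgeR, adjusted p = 0.044), and XBAT31 in control-AE plants (-1.12 ± 0.29, SE, edgeR, adjusted p = 0.037). Both had fallen in the roots concerned. The counts changed from 0 to 8 in control-AE and from 0 to 9 in AE plants when single libraries were left out. The count was 0 in control-AE plants without stem 11 d replicate 1, stem 24 h replicate 2 or root 11 d replicate 4. In AE plants it was 0 without stem 24 h replicate 3 or root 24 h replicate 1. Shares of all rows in these runs are not given here.

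Product name lists held few members, since names were at hand for 1875 rows only. Names came from a shortened sheet ordered by the authors' comparison, so the named rows may not stand for their categories. Over all rows tested, 5.98% were higher and 3.31% lower in control-AE roots. In AE roots these shares were 8.66% and 7.65%. The list of transcription factors, with ETC1 as its member, had 7 of 90 rows higher at 11 d and 12 lower in control-AE roots, 5 higher and 14 lower in AE roots, and none in AI roots. The list of lipid and surface proteins, with DIR1 as its member, had 5 of 25 rows higher and 3 lower in control-AE roots, and 4 higher and 3 lower in AE roots. The other 13 lists held no member. Of these, cell wall loosening had 8 of 22 rows higher and 1 lower in control-AE roots and 5 higher and 1 lower in AE roots, and auxin had 2 of 24 higher in control-AE and 4 higher in AE roots. The remaining 11 lists held 3 to 110 rows each. In control-AE roots they had 0 to 7 rows higher and 0 to 9 lower, and in AE roots 0 to 16 higher and 0 to 10 lower. The highest of each of these counts was that of the kinases, the list of 110 rows. No row of any list passed in AI roots. Of the marker rows, none of the 12 of green tissue and none of the 7 of secondary xylem passed over time in control-AE, AE or AI roots. In control-AE roots 1 of 2 rows of root endodermis was higher and the 1 row of phloem was lower. The 2 endodermis rows summed to 48.5 to 112 CPM in used roots and 59.55 to 118 CPM in used stems, so they are not specific to roots.

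The 16 members that did not pass the filter in roots were low transcripts. Their mean over the 21 root libraries ran between 0.0711 and 0.367 CPM, and no used root held more than 17 reads of any of them. Of the 12 members with the highest scores all were tested.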

How the data were processed

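Reads of polyadenylated RNA (paired-end, HiSeq) were mapped with STAR and counted with featureCounts (Subread) by the authors. The deposited values are whole-number counts per transcript row, not normalized, on RefSeq sequence names. Tool versions, strand and multimapping settings are not given in the sources used here, so overlapping and near-identical genes cannot be told apart. Product names came from a shortened supplementary sheet ordered by the authors' comparison, names only. No sequence is printed, since no genome was used here.

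The members, lists and tests were chosen with earlier results of these data known. The 20 rows of 28S rRNA were dropped from 62007 rows, and libraries of at least 1000000 counts were used (50 of 64, 3075654 to 21062883 counts). CPM is the count per 1000000 of the remaining total. One AE root 24 h library has no replicate number in its label and is called replicate 3.

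The change over time and the differences between sprays were tested with edgeR 4.0.16 (R 4.3.3) by glmQLFit and glmQLFTest on TMM-scaled counts, after filterByExpr (minimum count 10, minimum total count 15). Benjamini-Hochberg adjustment covered all rows of a fit, and calls have an adjusted p under 0.05. DESeq2 1.42.0 was an alternative. The other alternatives were median-of-ratios factors, no filter, all libraries, libraries labelled acceptable, counts summed per gene, each arm by itself, the replicate number as a block, control-AI roots included, each library left out in turn and, chosen after seeing the data, libraries without 5% or more rRNA counts. The code was tested on simulated data.

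Genes were named by score (the first 12) and by the highest value of the lowest log2 fold change over the 3 root arms (10). They were named by the lowest mean of those fold changes (5) and by the largest calls in stems (at most 5 up, 5 down). The plan held calls between sprays (at most 5), product name lists (at most 3 each) and the limit of 100 (3 inside, 3 outside). These named no further gene. From the genes named, the report gives those its results turn on. Members named because they passed in a root arm or in root minus stem, or carry a product name, were chosen after their values were seen.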

Additional observations from a re-analysis of the deposited data

Results flagged for a closer look

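Single libraries stood far from their group in 2 of 72 groups of values screened over 18 members, and chance marks about 1 group in 20. U-box 8 (gene 7497030) had 2.65 CPM in AE root 11 d replicate 3, the highest of 6. DIR1 (gene 7468489) had 853 CPM in control-AI root 11 d replicate 2, the highest of 4, in a group that the rule used.

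The change over time differed between root and stem by edgeR's test of the difference in 8 cases. In control-AE plants the log2 difference, root minus stem, was 2.05 for gene 7477848, -2.11 for gene 7463701 and -1.12 for XBAT31. In AE plants it was 1.61 for gene 7477848, -1.11 for gene 7477065, 1.47 for gene 7472590, -1.03 for molybdate transporter 1 and 3.05 for gene 7458043. Adjusted p-values were 0.019 to 0.045 (edgeR).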

How the results depend on the processing

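No value past the threshold changed sign under any alternative run. Members called higher in control-AE roots (10) were 6 with the replicate block, 4 with libraries labelled acceptable, 6 with all libraries and 2 with the arm by itself, and 3 to 17 leaving out 1 library. In AE roots (15) they were 1 to 18 leaving out 1 library, and in AI roots 0 throughout. For AE against control-AE roots at 11 d (0) DESeq2 gave 1, and leaving out 1 library 0 to 1. In control-AI stems (0) DESeq2 gave 1. In control-AE stems (0) there were 1 with no filter, 4 with DESeq2, 1 with all libraries and 0 to 2 leaving out 1 library. In AE stems (4) there were 0 with the replicate block, 7 with DESeq2, 2 with all libraries, 2 with the arm by itself and 0 to 5 leaving out 1 library. For root minus stem, control-AE plants (3) had 1 with the replicate block, 7 with DESeq2, 0 with the arm by itself and 0 to 8 leaving out 1 library, and AE plants (5) had 2 with no filter, 3 with the replicate block, 1 with all libraries, 3 with the arm by itself and 0 to 9 leaving out 1 library. Shares of all rows called under these alternatives are not given, so these changes may not be particular to the members. The causes were not tested. For libraries that share a replicate number, correlations of deviations lay between -0.293 and 0.109 over 9 pairs of root times. They lay between -0.182 and 0.104 over 6 of stem times, and -0.273 and 0.142 over 20 of root and stem. With 2 to 6 libraries per group, these values cannot show whether such libraries share a plant or batch. Of the values of named members under alternatives, 3453 kept their side of the threshold, 327 no longer passed, 29 newly passed and 75 changed sign, all of the last kind being values that passed neither with the reported setting nor with the alternative. Among these, in control-AE roots, ETC1 (0.67) went as low as -0.06, histone H1 (0.21) as low as -0.03 and ATL12 (-0.20) as high as 0.31. In AE roots gene 7474537 (-0.36) went as high as 0.06, and in AI roots gene 18096921 (0.69) as low as -0.08. Depth limits the 29 members with at most 5 reads in every control-AI 24 h root.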
